A study of Mus musculus with 8 samples.

Results

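The 5 genes described here encode the SP100 family and 2 partners in PML nuclear bodies: Sp100, Sp110, Sp140, Pml and Daxx. They were taken by gene symbol from a count table of 49315 genes, with GENCODE M21 on GRCm38 supplying the symbols, and they had been selected on the difference in their counts between MAARS gapmeR and control gapmeR, which was already known. All 5 were among the 13051 genes with enough counts to test. Their values are therefore given as a description with no test, whereas the genes around them were tested over all 13051 genes.

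The libraries were made from bone marrow-derived macrophages (BMDMs) of C57BL/6 mice, grown in culture with 10 ng/ml of mouse M-CSF. The cells received by Lipofectamine 3000 either gapmeRs for the lncRNA MAARS (4 libraries, replicates 9, 11, 13 and 15) or the negative control gapmeR #1 (4 libraries, replicates 2, 5, 6 and 7), at 25 nM in the labels. GapmeRs are antisense oligonucleotides whose target RNA is cut by RNase H. Only transfected cells were measured, so an effect of losing MAARS and any other effect of its gapmeR cannot be told apart in this design, and no label gives mouse age or sex or says whether replicates were separate animals.

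MAARS itself, listed as Gm14461, had 238, 296, 240 and 249 counts with the control gapmeR and 163, 161, 159 and 135 with its own gapmeR. The groups did not overlap, and MAARS was 1.93-fold lower (log2 fold change −0.95 ± 0.112 SE, edgeR adjusted p = 5.80e-05). Totals were 19287279 to 20567123 counts per library in the control group and 20839671 to 24541205 with MAARS gapmeR, so every knockdown library was the deeper. The macrophage label fitted its markers: the summed level of all 8 was 14423 to 17650 CPM in controls (counts per 1000000 counts of the scaled library) and 17952 to 21356 CPM with MAARS gapmeR. Of these 8 markers Lyz2 had the most counts in both groups and so weighs most in the sum. Fcgr1 fell by 2.09 and Cd68 by 0.34 on the log2 scale, and 5 rose. Only 1 of 5 B cell markers and 1 of 5 dendritic cell markers had enough counts to test. Of the neutrophil and precursor markers 7 of 8 were tested, and all 6 stromal markers were. None of those tested passed, although the stromal sum was sizeable, at 459.6 to 1047 CPM in controls and 719.5 to 1237 CPM with MAARS gapmeR. The summed endothelial markers were at 16.1 to 20.5 CPM and 6.25 to 7.66 CPM, with Kdr lower, and among T and NK cell markers Cd4 was lower while the other 7 averaged under 1 CPM. Erythroid markers summed to at most 0.347 CPM. The part of these markers in the results was not tested, and in such bulk RNA fewer cells of a type and less RNA per cell cannot be told apart.

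PML nuclear bodies are round protein assemblies in the nucleus that are built on the PML protein. PML is modified by SUMO, a small ubiquitin-like protein, and other proteins, Sp100 and Daxx among them, gather through SUMO and the short motifs that bind it. The bodies are known for holding viral DNA silent, for apoptosis and for chromatin control, and interferon is known to induce Pml and the SP100 family. Sp100, Sp110 and Sp140 are related chromatin proteins with a SAND domain, most forms of which also carry a domain for protein assembly at the start. Sp100 is a constant resident of the bodies, and Sp140 is made mainly in leukocytes. The region that holds Sp110 and Sp140 is known in mice for its link with resistance to intracellular bacteria. Daxx is a chaperone of histone H3.3 that works with the ATPase ATRX.

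The 3 family genes lie side by side on mouse chromosome 1, in a span of 133100 bases on GRCm38. Sp110 occupies chr1:85576899-85598817 on the minus strand, Sp140 chr1:85600378-85645037 on the plus strand and Sp100 chr1:85649988-85709998 on the plus strand. Sp110 and Sp140 start head to head, 1560 bases apart, and Sp140 ends 4950 bases before Sp100 begins. Pml (chr9:58218076-58249786, minus strand) and Daxx (chr17:33909414-33915590, plus strand) lie elsewhere.

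The members' start regions were read for 2 kinds of site known from interferon signalling, since factors of that pathway differed between the groups as given further on. RefSeq (GRCm38.p6) gives 9 promoters for the 5 genes, each running from 250 bases before a transcript start to 50 after it. The core of the interferon-stimulated response element (ISRE), spelled GAAANNGAAA or TTTCNNTTTC on the other strand, was in none of the 9, against 3.44% of all 32851 promoters. The gamma-activated sequence TTCNNNGAA was in none of the 9 either, against 8.30%. At these shares 9 promoters, some of which overlap, can easily hold none, so this shows no lack of such sites. The ISRE letters with 1 more base between them (GAAANNNGAAA or TTTCNNNTTTC), searched after the sequences had been seen, were in 2.75% of all promoters and in 3 of the 9, belonging to Sp100 (both of its promoters, which overlap) and Sp110. The stretches that hold this match are printed here, 5′ to 3′ on the gene's own strand with the match in capitals, for Sp110 at chr1:85598761-85598846 and for Sp100 at chr1:85649896-85649996.
Sp110: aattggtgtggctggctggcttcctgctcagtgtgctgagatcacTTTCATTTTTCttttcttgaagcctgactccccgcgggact
Sp100: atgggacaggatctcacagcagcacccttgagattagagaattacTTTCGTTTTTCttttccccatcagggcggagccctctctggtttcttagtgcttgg

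The Sp110 promoter at chr1:85603842-85604141 held no match. In the other Sp110 promoter the match began 9 bases after the transcript start, and for Sp100 it began 47 or 73 bases before the starts. Around it the 2 genes shared 18 bases that differed at 1 position. Written with N at that position, ACTTTCNTTTTTCTTTTC was found in 4 of the 32851 promoters, either strand, which belonged to Sp100 (2 promoters), Sp110 and Gm7609. Gm7609 is annotated as a transcribed pseudogene at chr1:85199613-85213786 and shares transcript sequence with Sp100. Sp140, Pml and Daxx had none of these letters in the windows searched. The Daxx promoters differed from the rest in base composition, with 69.3% to 69.7% G and C and 32 or 33 CG pairs, whereas the Pml promoter held 53.7% and 11 CG pairs. These matches are a description of letters, and no binding was measured.

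Sp100 was the most abundant of the 5 by count. It stood at 255.4, 295.4, 317.1 and 285.3 CPM in control replicates 2, 5, 6 and 7 and at 114.2, 154.2, 176.2 and 126.2 CPM in MAARS gapmeR replicates 9, 11, 13 and 15. CPM includes TMM factors, which correct for differences in library composition. The lowest control library was 1.45 times the highest MAARS gapmeR library, and with MAARS gapmeR the libraries of replicates 9 and 15 lay below those of 11 and 13. The means were 288.3 ± 25.6 CPM and 142.7 ± 27.9 CPM (SD, n = 4 each), a 2.02-fold lower level (log2 fold change −1.01 ± 0.119 SE).

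Sp110 differed most among the 5. Control replicates 2, 5, 6 and 7 held 121.0, 143.6, 186.4 and 167.1 CPM, and MAARS gapmeR replicates 9, 11, 13 and 15 held 33.3, 34.3, 39.3 and 35.7 CPM. The gap between the groups was the widest of the members, with the lowest control 3.08 times the highest MAARS gapmeR library. The mean was 154.5 ± 28.4 CPM in controls and 35.6 ± 2.62 CPM with MAARS gapmeR, 4.33-fold lower (log2 fold change −2.12 ± 0.117 SE), so 23.1% of the control level was left.

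Sp140 was at 64.7, 87.7, 103.3 and 93.8 CPM in the controls and at 36.4, 33.8, 40.9 and 34.1 CPM with MAARS gapmeR, in the same replicate order. No library of one group reached the other, although control replicate 2 was closer to the MAARS gapmeR libraries than to control replicate 6. From 87.4 ± 16.4 CPM to 36.3 ± 3.3 CPM the level was 2.41-fold lower (log2 fold change −1.27 ± 0.123 SE).

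Daxx, the H3.3 chaperone, was at 89.9, 110.9, 123.0 and 120.4 CPM in the controls and at 40.2, 45.6, 49.9 and 41.4 CPM with MAARS gapmeR. The groups stood well apart, the lowest control at 1.80 times the highest MAARS gapmeR library. Its mean of 111.1 ± 15 CPM compared with 44.3 ± 4.38 CPM, 2.51-fold lower (log2 fold change −1.33 ± 0.0992 SE).

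Pml, the scaffold of the bodies, differed least. It was at 82.4, 101.4, 112.0 and 101.9 CPM in the controls and at 61.1, 67.1, 69.9 and 62.3 CPM with MAARS gapmeR. The groups were separate by a narrow margin, with control replicate 2 at 1.18 times the highest MAARS gapmeR library. Pml averaged 99.4 ± 12.3 CPM and 65.1 ± 4.13 CPM, 1.53-fold lower (log2 fold change −0.61 ± 0.0838 SE), so the transcript of the scaffold was 34.5% lower whereas those of Sp100 and Daxx were 50.5% and 60.1% lower.

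**Figure D1:**
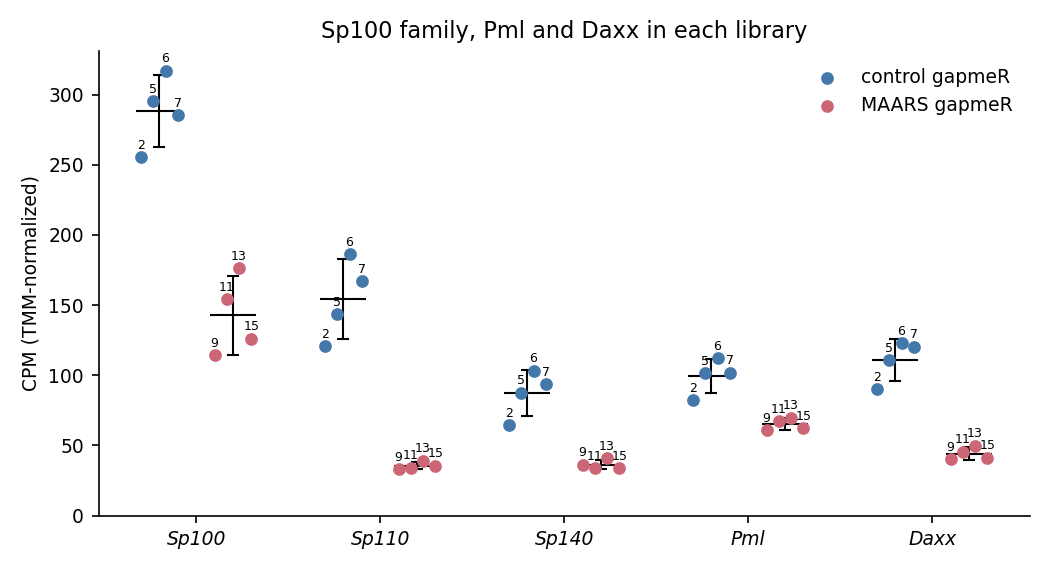
Level of each of the 5 genes in CPM (TMM-normalized, linear axis from 0) in the 4 control gapmeR and 4 MAARS gapmeR libraries; each point is a library with its replicate number, and bars give the mean and SD. In each gene the 4 MAARS gapmeR libraries lie below the 4 controls, with the widest gap for Sp110 and the narrowest for Pml, and control replicate 2 is the lowest control throughout.

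The log2 fold changes of the 5 genes had a median of −1.27, against 0.01 over all genes tested. With edgeR 5919 genes in all (45.4%) passed an adjusted p of 0.05, 3137 (24.0%) downward and 2782 (21.3%) upward, and 22.8% of genes had all 4 MAARS gapmeR libraries below all 4 controls. The members all lie in that last class, but they were chosen with the difference between the groups known, so this is no test. Of the genes tested, 109 had a lower log2 fold change than Sp110, 274 than Daxx, 293 than Sp140, 404 than Sp100 and 874 than Pml. With upper-quartile scaling in place of TMM the share of called genes that were higher was 60.4% in place of 47.0%, with a shift of 0.06 in the median log2 fold change of all genes.

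Within each group the members also differed together from library to library. Control replicate 2 was the lowest control for all 5 genes, by 0.17 to 0.41 below the group mean on the log2 scale, and control replicate 6 was above the mean for all 5. Among the knockdown libraries replicate 13 was above the group mean for all 5 genes, by 0.10 to 0.32, and replicates 9 and 15 were each below it for 4 of them. The genes share the libraries, so these are not independent observations. With each library left out in turn the log2 fold change ran from −2.21 to −2.02 for Sp110, from −1.41 to −1.28 for Daxx, from −1.38 to −1.18 for Sp140, from −1.13 to −0.93 for Sp100 and from −0.69 to −0.55 for Pml.

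Levels of different genes were compared per kilobase, since a longer transcript yields more reads. Divided by the joined length of all annotated exons, the control level was 38.2 ± 3.39 CPM per kb for Sp100, 35.2 ± 4.77 for Daxx, 26.3 ± 4.94 for Sp140, 22.8 ± 4.19 for Sp110 and 17.8 ± 2.21 for Pml (SD, n = 4). The range of each neighbour in this order overlapped the next. Within each control library, however, Daxx was above Sp140, Sp140 above Sp110 and Sp110 above Pml. Only Sp100 and Daxx changed places, in control replicate 7 (37.8 and 38.2 CPM per kb). With MAARS gapmeR the levels were 18.9 ± 3.70 CPM per kb for Sp100, 14.1 ± 1.39 for Daxx, 11.7 ± 0.741 for Pml, 10.9 ± 0.992 for Sp140 and 5.26 ± 0.386 for Sp110. Here the Daxx libraries (12.8 to 15.8 CPM per kb) were all above those of Pml (11 to 12.6), and the Sp140 libraries (10.2 to 12.3) were all above those of Sp110 (4.91 to 5.79). The ranges of Sp100 and Daxx overlapped, and so did those of Pml and Sp140, although within each library Sp100 was above Daxx and Pml above Sp140. On this scale Sp110 thus went from the fourth place to a level of its own at the bottom. Much depends on the length used: Sp110 has 6781 bases of joined exons but a longest transcript of 2583 bases. Divided by the longest transcript, Sp110 took the second place in controls at 59.8 CPM per kb, after Sp100 at 75.7 and before Daxx at 41.5, Sp140 at 36.1 and Pml at 22.2. With MAARS gapmeR its mean was 13.8, beside 14.5 for Pml and 15 for Sp140. There its range over libraries (12.9 to 15.2) overlapped those of Pml (13.6 to 15.6), Sp140 and Daxx. Within each library Sp110 was still the lowest, though in replicate 15 only narrowly (13.8, beside 13.9 for Pml).

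**Figure D2:**
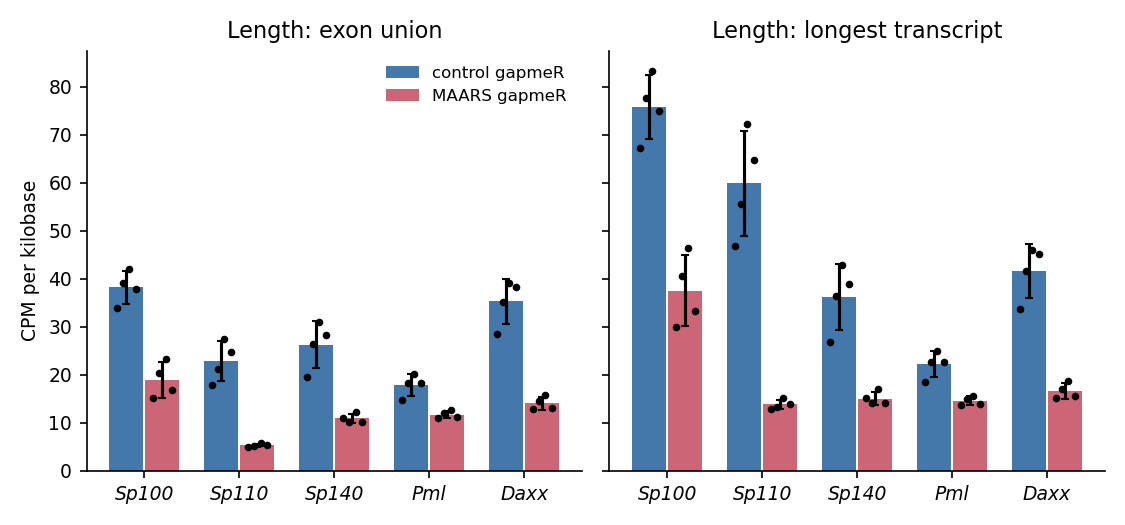
Level per kilobase (CPM per kb, linear axis from 0) of the 5 genes in both groups, with the length taken as all joined exons (left) or the longest annotated transcript (right); bars are means of 4 libraries with SD, and points are libraries. The change of length moves Sp110 in controls from 22.8 to 59.8 CPM per kb and so from the fourth to the second place. With MAARS gapmeR the Sp110 range lies below all others on the left but overlaps those of Pml, Sp140 and Daxx on the right. Within each MAARS gapmeR library Sp110 is the lowest on both sides.

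Counting in this cluster is less certain than for Pml and Daxx, because copies of the family genes lie nearby. Of all 100-base windows in the Sp140 transcripts 35.6% also occur in transcripts of 13 other genes, and of those in Sp110 21.9% occur in 7 others. The share is 1.74% for Sp100, 0.0962% for Pml and none for Daxx. In addition, 26.5% of the Sp140 exons lie opposite exons of Gm10552 or Gm17017 on the other strand, and 5.78% of the Sp110 exons lie opposite G530012D18Rik. The sources used here do not give the strand setting or the treatment of reads that map to several places, so the values of Sp110 and Sp140 may hold reads of such genes or lack reads shared with them.

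Within 1 Mb of the 3 family genes lie 78 other genes of the table, of which 22 had enough counts to test. Among them 7 fell (31.8%), 3 rose (13.6%) and 12 did not pass, with a median log2 fold change of −0.07. Over all genes tested 24.0% were lower and 21.3% higher. The 4 that share 100-base windows with a family member all fell, with log2 fold changes from −2.29 to −1.21, and they hold the lowest values of the neighbourhood. A530040E14Rik was at 10.9, 14.7, 24.0 and 20.2 CPM in the controls and at 2.70, 3.26, 4.78 and 3.55 CPM with MAARS gapmeR (log2 fold change −2.29 ± 0.247 SE, edgeR adjusted p = 3.02e-05). Its groups did not overlap, and as for the members control replicate 2 was the lowest control. C130026I21Rik fell by 1.42 on the log2 scale (adjusted p = 6.26e-05), A530032D15Rik fell by 1.77 (adjusted p = 0.00108) and Gm17017, which is annotated opposite Sp140, fell by 1.21 (adjusted p = 0.00122). Reads shared between these genes and the members could not be told apart from reads of their own.

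The 18 neighbours that share no such window had a median log2 fold change of −0.04, and 3 of them fell. The serotonin receptor gene Htr2b fell by 0.98 (edgeR adjusted p = 0.00118) from a low level of 4.44 CPM. Pde6d, a carrier of prenylated proteins, fell by 0.43 (adjusted p = 0.000168) and the ubiquitin ligase gene Trip12 by 0.24 (adjusted p = 0.00129). The RNA exonuclease gene Dis3l2 rose by 0.45 (adjusted p = 0.00119), and the others that rose were Dner and B3gnt7. Over the whole genome 6 tested genes share windows with a member, among them the 4 neighbours of the previous paragraph. Of the 6, 5 fell, beside 24.0% of all genes tested. The exception was Arhgef12, on another chromosome, which shares 256 windows with Sp140 and was at 49.2 CPM and 52.7 CPM (log2 fold change 0.10 ± 0.0879 SE, adjusted p = 0.384).

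**Figure D3:**
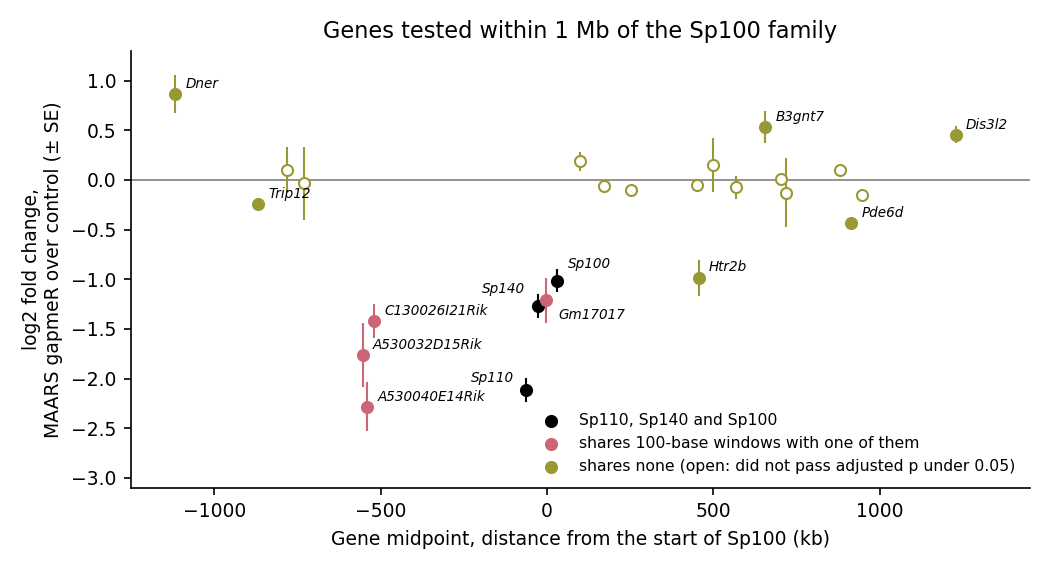
Log2 fold change (MAARS gapmeR over control gapmeR, bars ± SE) of Sp110, Sp140, Sp100 and the 22 tested genes within 1 Mb, by distance of the gene's midpoint from the start of Sp100 in kb. The 4 genes that share 100-base windows with a family member lie between −2.29 and −1.21, near the members, whereas the 18 that share none have a median of −0.04.

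The other proteins of PML bodies did not move as one. Of 18 genes in this list, 6 fell (33.3%), 3 rose (16.7%) and 9 did not pass, with a median log2 fold change of −0.16. Among all genes tested 24.0% were lower and 21.3% higher. Isg20, an interferon-induced RNA exonuclease that can be found in the bodies, had the lowest value: 19.7, 23.6, 40.9 and 41.7 CPM in the controls against 2.18, 3.26, 2.53 and 2.04 CPM (log2 fold change −3.64 ± 0.275 SE, edgeR adjusted p = 5.27e-06). Control replicates 2 and 5 were lower than 6 and 7, and all 4 lay above the MAARS gapmeR libraries. Morc3, an ATPase that localises to PML bodies, was at 127.6 to 149.4 CPM in controls and 76.9 to 83.6 CPM with MAARS gapmeR (log2 fold change −0.77 ± 0.0584 SE, adjusted p = 5.27e-06). Rb1, the retinoblastoma cell cycle brake, rose from 64.8 ± 4.0 to 96.3 ± 5.20 CPM (log2 fold change 0.57 ± 0.0570 SE, adjusted p = 1.80e-05), without overlap. Of the DNA repair proteins that visit the bodies, Rad50 rose by 0.46 and Top3a and Rmi1 fell by 0.23 and 0.35, whereas Blm, Nbn and Mre11a, partners of these, did not pass.

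SUMO enzymes carried small differences. Of 22 genes, 9 fell, 1 rose and 12 did not pass, with a median of −0.07, beside 24.0% of all genes lower and 21.3% higher. With upper-quartile scaling 5 fell and 2 rose. Of the genes for the modifier itself, Sumo3 fell by 0.32 on the log2 scale (edgeR adjusted p = 0.000287), from 123.6 ± 7.46 to 98.9 ± 0.351 CPM, and Sumo2 fell by 0.16. The ligase gene Ranbp2 fell by 0.36 (adjusted p = 0.000323). Of the proteases that remove SUMO, Senp2 had the smallest p and fell by 0.35 (adjusted p = 0.000128), and Senp1, Senp3, Senp5 and Senp6 fell as well, by 0.14 to 0.33. Rnf4, the ligase that targets SUMO-modified PML for breakdown, was at 127.7 and 131.4 CPM and did not pass.

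Genes that deposit histone H3.3, the task of Daxx, were split. Of 12 genes 3 fell, 5 rose and 4 did not pass, with a median log2 fold change of 0.13. The shares of all genes were 24.0% lower and 21.3% higher. Atrx, the partner of Daxx, rose by 0.29 (edgeR adjusted p = 0.00313), from 123.3 to 151.2 CPM, where Daxx was at 111.1 and 44.3 CPM. The histone methyltransferase gene Setdb1 rose by 0.31 (adjusted p = 0.000205), with 56.5 to 58.6 CPM in controls and 69.0 to 74.3 CPM with MAARS gapmeR. Asf1a, a histone chaperone, fell by 0.46 (adjusted p = 0.00100). Of the Asf1a exons 48.0% lie opposite exons of Mcm9, so with the strand setting unknown its counts may hold reads of that gene. Of the H3.3 genes themselves H3f3b fell by 0.28 (adjusted p = 0.000553) and H3f3a, at 234.9 and 265.9 CPM, did not pass. H3f3b and H3f3a have processed copies in the genome, which makes their counts uncertain.

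Of 14 genes for proteins that bind Daxx or Sp100, 8 rose, 2 fell and 4 did not pass, with a median of 0.24, beside 21.3% of all genes higher and 24.0% lower. Without control replicate 6 or 7 only 4 rose, and without MAARS gapmeR replicate 11 there were 5. The HP1 genes, whose proteins bind Sp100 on heterochromatin, all passed the test: Cbx1 rose by 0.34 (edgeR adjusted p = 0.000758), Cbx5 by 0.27 and Cbx3 by 0.22. The libraries of the groups overlapped for Cbx5 and Cbx3 but not for Cbx1. Hmgb2, another chromatin protein, rose by 0.61 (adjusted p = 0.000122). Rassf1, which encodes a tumour suppressor that binds Daxx, fell by 0.81 (adjusted p = 5.11e-05), from 33.6 ± 3.74 to 19.2 ± 2.01 CPM. Of the Rassf1 exons 42.7% lie opposite exons of Gm9917, so with the strand setting unknown its counts may hold reads of that gene. Usp7, the protease that Daxx holds together with Mdm2, fell by 0.22. Fas and Map3k5, through which Daxx has been linked to apoptosis, rose by 0.36 and 0.35, Fas from a level of 5.86 CPM.

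Enzymes that modify PML or mark it for breakdown were mixed. Of 17 genes 6 fell, 3 rose and 8 did not pass, with a median of −0.10, beside 24.0% of all genes lower and 21.3% higher. With upper-quartile scaling 2 fell. Casein kinase 2 phosphorylates PML ahead of its degradation. Its catalytic subunit gene Csnk2a1 rose by 0.54 (edgeR adjusted p = 1.89e-05), with 57.6 to 68.1 CPM in controls and 88.5 to 94.6 CPM with MAARS gapmeR, whereas Csnk2a2 and the regulatory Csnk2b fell by 0.19 and 0.16. Among kinases of the MAP kinase family Mapk3 rose by 0.42 (adjusted p = 0.00110) and Mapk7 fell by 0.37 (adjusted p = 0.000238). Of the genes for ubiquitin ligases, Rbx1, the RING subunit of cullin ligases, fell by 0.23 (adjusted p = 0.00140), from 98.5 ± 4.06 to 84.1 ± 1.15 CPM without overlap, whereas Ube3a, Klhl20, Cul3, Siah1a, Siah2 and Uhrf1 did not pass.

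Of 10 other nuclear proteins with domains of this family, 9 could be tested. Among these 1 fell, 2 rose and 6 did not pass, with a median of 0.09, beside 24.0% of all genes lower and 21.3% higher, and Aire had no count in any library. Skil, which encodes a SAND domain repressor of SMAD signalling, fell by 0.72 (edgeR adjusted p = 6.02e-05), from 81.1 ± 10.1 to 49.3 ± 3.57 CPM. Its relative Ski rose by 0.29 (adjusted p = 0.000212), and Trim24, a bromodomain co-regulator, rose by 0.30 (adjusted p = 0.0102). Deaf1, Gmeb1 and Gmeb2, which also carry a SAND domain, did not pass. With upper-quartile scaling 4 rose. Over these 6 lists together 27 of 92 genes fell and 22 rose (29.3% and 23.9%), beside 24.0% and 21.3% of all genes, with a median of −0.03.

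The interferon pathway, which is known to induce the members, was listed from receptors to transcription factors. Of 14 genes 9 fell (64.3%), 1 rose (7.1%) and 4 did not pass, with a median log2 fold change of −0.22. Among all genes 24.0% were lower and 21.3% higher. At the receptors Ifnar1 rose by 0.29 (edgeR adjusted p = 0.000649), Ifngr2 fell by 0.22, and Ifnar2 and Ifngr1 did not pass. Of the kinases Jak2 fell by 0.42. The lowest values of the list belonged to transcription factors, although not every factor was among them. Stat2 fell by 1.52 (adjusted p = 1.12e-05), Irf9, its DNA-binding partner, fell by 0.71, and Irf1 fell by 0.68. Irf7, which amplifies type I interferon, fell by 3.20 (adjusted p = 3.05e-05). Stat2 was at 340.2, 396.7, 461.9 and 421.1 CPM in control replicates 2, 5, 6 and 7 and at 108.4, 153.1, 178.2 and 126.5 CPM in MAARS gapmeR replicates 9, 11, 13 and 15. Control replicate 2 was again the lowest control. The order of the MAARS gapmeR libraries, replicate 9 below 15, 11 and 13, was that of Sp100, Pml and Daxx, but not of Sp110 or Sp140. Irf7 ran from 1047 to 1603 CPM in controls and from 59.3 to 237.7 CPM with MAARS gapmeR, lowest and highest in those libraries too. Whether this pathway had a part in the levels of the members was not tested.

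**Figure D4:**
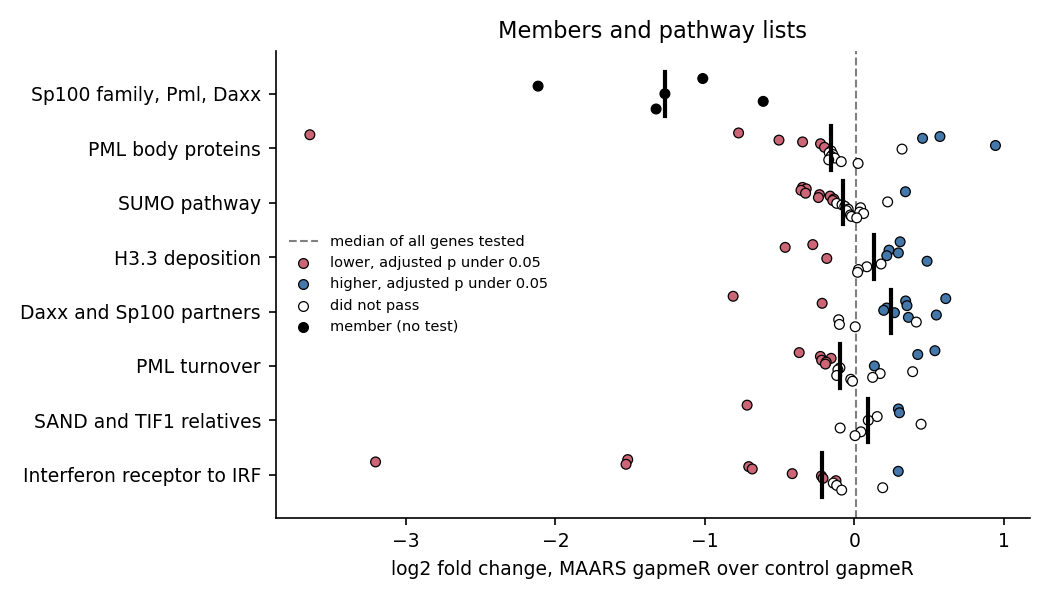
Log2 fold change (MAARS gapmeR over control gapmeR) of the 5 members and of each tested gene in 7 pathway lists; a point is a gene, coloured by its edgeR adjusted p, a thick bar is the list's median and the dashed line is the median of all genes tested (0.01). The members lie between −2.12 and −0.61, the list medians between −0.22 and 0.24, and single genes such as Isg20 and Irf7 far below their lists.

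For each member the other genes were ranked by how closely their log2 CPM, centred on the mean of the 8 libraries, followed it, using the root mean square (RMS) difference over these libraries. The likeness is mostly that of the difference between the groups, so it is a description, and 13050 genes were ranked each time. Sp100 was closest to Parp9 (RMS difference 0.0444, log2 fold change −0.95), a mono-ADP-ribosylation factor, then to the RNA-activated kinase gene Eif2ak2 (0.0641) and to Lgals3bp (0.0673). Daxx was closest to the immunoproteasome subunit gene Psmb10 (0.0317), followed by Tapbp (0.0660) and Gm49342 (0.0702). Tapbp encodes tapasin, which loads peptides on MHC class I. It is also the next gene after Daxx on chromosome 17, beginning 308 bases beyond its end on the same strand, and it was at 949.0 ± 134.0 and 393.5 ± 49.0 CPM (log2 fold change −1.27).

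Sp140 was closest to 1600014C10Rik (RMS difference 0.0607), again to Psmb10 (0.0815), and to the tapasin relative Tapbpl (0.0830). Daxx stood in the sixth place for Sp140 (0.0978), the nearest that any member came to another, although the genes are on different chromosomes. Sp140's neighbours in the cluster were farther, Sp100 at 0.212 and Sp110 at 0.431. Sp110 was closest to Ass1, an enzyme of arginine synthesis (0.0988), to Gpr35 (0.123) and to Rnase6 (0.129), 3 genes of at most 37.9 CPM in controls. Pml was closest to Cd47, the surface signal against phagocytosis (0.0479), to Evl (0.0489) and to the protease gene Ctss (0.0491), with log2 fold changes of −0.60, −0.66 and −0.57. The 5 members therefore had 5 different nearest genes, with Psmb10 in the lists of both Daxx and Sp140.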

How the data were processed

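RNA-Seq was performed on ribodepleted total RNA, read in pairs. The submitters' processing notes name Trimmomatic 0.36, STAR 2.5.2b, featureCounts of Subread 1.5.2 and build GRCm38. The deposited values are raw counts per Ensembl gene, which the authors did not normalize; they hold no comparison of the authors. Strand setting, treatment of reads mapping to several places, and whether fragments or reads were counted are not given in the sources used here. Groups followed the labels. Replicate numbers are not shared between groups, and no label says that replicates were separate cultures or animals, so p-values measure the spread between these libraries, which may be technical.

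Low genes were removed with filterByExpr at a minimum count of 10 and a total of 15, and the rest were scaled with TMM factors (0.955 to 1.03) and compared with edgeR 4.0.16 in R 4.3.3 (glmQLFit and glmQLFTest), with Benjamini-Hochberg adjustment over 13051 genes at 0.05. The SE is the log2 fold change over the square root of F. Depth was 19287279 to 24541205 counts per library. The procedure was tested on simulated counts. Symbols, lengths and overlaps came from GENCODE M21, which held 99.5% of the identifiers; promoters came from RefSeq. A window of 100 bases counted as shared when the same letters, on either strand, were in a transcript of another gene.

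Members and lists were chosen with earlier results of these data known. Named are the members, MAARS, in each list the 3 tested genes lowest in p, up to 8 called neighbours, and the 3 genes nearest each member in pattern; genes named beyond these complete a list's account and were chosen after their values were seen. Some genes of the lists are counted but not reported by name here. The alternatives were RLE and upper-quartile factors, DESeq2 1.42.0, limma-voom (limma 3.58.1), leaving out the filter, keeping genes with a mean of 10 counts or more, each library left out, and, for levels, the longest transcript and plain library totals.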

Additional observations from a re-analysis of the deposited data

Results flagged for a closer look

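Of 70 groups of 4 libraries examined, 3 held a library far from the other 3, and chance alone gives about 1 in 20 such groups. None concerned a member. Senp2 was at 96.9 CPM in control replicate 7 and at 102.7 to 103.3 CPM in the other controls. H3f3b stood at 805.6 CPM in MAARS gapmeR replicate 15 and at 748.9 to 755.1 CPM in the others. Pde6d was at 19.9 CPM in MAARS gapmeR replicate 11 and at 21.6 to 22 CPM in the others. All 3 genes kept their direction and their call with each library left out.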

How the results depend on the processing

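The log2 fold changes of the 5 members kept their direction in every alternative, and all 70 values lay within 1 SD of the reported one. This SD is the pooled spread of log2 CPM between libraries of a group. Leaving out 1 library can hardly move a value that far, so for the libraries left out this is no test. The 30 tested genes that the naming rule gives beside the members, MAARS included, kept direction and call throughout. Counts over lists moved by over 1.5 times as follows, and the cause was not tested except as stated. With upper-quartile factors, which shift all log2 fold changes upward by 0.06, 5 SUMO genes were lower and 2 higher, 2 PML turnover genes were lower, 4 SAND and TIF1 relatives and 2 interferon genes were higher, and 5 neighbours were higher. Without the filter 2 SUMO genes and 2 interferon genes were higher. The neighbours that were lower numbered 12 without the filter and 11 with DESeq2, since both test more genes of low counts. With libraries left out the genes that were higher numbered 1 to 2 in the SUMO list (2 without control replicate 2 or MAARS gapmeR replicate 9), 4 to 7 among the Daxx and Sp100 partners, and 1 to 2 in the interferon list (2 without MAARS gapmeR replicate 11). With the longest transcript as length the control levels became 75.7 CPM per kb for Sp100, 59.8 for Sp110, 36.1 for Sp140, 22.2 for Pml and 41.5 for Daxx. No paired analysis was possible because the groups share no replicate number. Genes at a few counts in the cluster were not testable with the filter.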

Other observations

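Of the neighbouring genes that share 100-base windows with Sp100, Sp110 or Sp140, 15 had too few counts for the test. Of these, 7 had under 10 counts over all libraries and 8 had 10 or more. When edgeR was run with no filter on low counts, 3 of the 8 were lower and 5 did not pass. In that fit 23.3% of all genes passed in either direction, and 46.9% of the genes that passed were higher. Summed over 4 libraries, Gm7609, whose promoter carries the stretch shared by Sp100 and Sp110, had 74 counts in the controls and 4 with MAARS gapmeR (adjusted p = 5.81e-06). Gm7592 had 33 and 3 counts (adjusted p = 0.000794) and Gm16026 had 24 and 3 (adjusted p = 0.0148). Among those that did not pass, Gm7582 had 19 and 7 counts, Gm2619 had 14 and 2, Gm18342 had 10 and 7, Gm16028 had 7 and 11, and Gm29284 had 5 in each group. Their reads and those of the members cannot be told apart here. Low neighbours that share no window and passed in the same fit were Gpr55, with 34 and 7 counts (adjusted p = 0.00574), and Gm15433, with 17 and 0 (adjusted p = 0.00409).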
